A study of Mus musculus with 27 samples.

Results

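Heat shock proteins and chaperones help other proteins to fold, hold unfolded chains and take protein complexes apart. The genes described here are those whose symbol in the deposited table begins with Hsp70, Hsp90, Hsp60, Hsp10 or small heat shock protein names (Hspa, Hspb, Hspd, Hspe, Hsph and Hsp90 followed by their letter or number), with Dnaja, Dnajb or Dnajc, or with Cct and a number. This rule uses names alone and took 79 of 59489 entries, of which 23508 carry a symbol. They fall into 12 Hsp70 genes (Hsph1 included), 3 Hsp90 genes, the pair Hspd1 and Hspe1, 8 small heat shock protein genes, 4 Dnaja, 13 Dnajb and 28 Dnajc genes, and 9 Cct genes. The genes Hspa1a and Hspa1b are not analysed here.

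Polyadenylated RNA was measured in wild type mouse cortical cells taken at embryonic day 16.5 and kept in culture for 14 days, in 27 libraries, 3 in each of 9 groups. In the first experiment all cells received DRB, which blocks transcription elongation (50 µM, 2 h), and were left unstimulated, given bicuculline (20 µM, 1 h) or given BDNF (50 ng/mL, 1 h). Bicuculline antagonises the GABA-A receptor, which takes away inhibition and raises firing, and BDNF is a growth factor that activates the receptor TrkB. In the second experiment all cells received triptolide, a block of transcription initiation (1 µM, 3 h), some of them with bicuculline (20 µM, 1 h) and some without, and RNA came from whole cells, nuclei or cytosol. No group without an inhibitor is analysed here, so every comparison is one between inhibited cells.

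Hsp70 proteins bind and release client proteins in a cycle driven by ATP, J-domain proteins (the Dnaj genes) bring them clients and start the ATP hydrolysis, and Hsp90 proteins act later, on nearly folded clients such as kinases. The Cct proteins form a ring with Tcp1 in which actin and tubulin fold. In neurons Hspa8 also strips clathrin from vesicles together with auxilin (Dnajc6), and cysteine string protein (Dnajc5) keeps synaptic vesicle release running.

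Values are FPKM, fragment counts scaled to gene length and library size. Differences are on the log2(FPKM + 0.5) scale, which understates the change of low genes, and were tested with limma across all entries that reached 1 FPKM in 3 or more libraries of the fit. A gene is called changed at a Benjamini-Hochberg adjusted p under 0.05 over all entries tested. Of the 79 genes, 64 could be tested under DRB and 62 under triptolide. The depth read from the steps of low values was 83413000 to 147951890 fragments a library under DRB and 67583292 to 89447033 under triptolide, so that 10 fragments on a 2 kb transcript make an FPKM of at most 0.0740. Under DRB the replicate 2 libraries of all 3 groups stood apart from the others on the first principal component, which held 51.5% of the variance. Under triptolide the first component (70.1%) followed the RNA fraction. Neuronal markers were abundant in every library, while the summed FPKM of 7 microglial markers reached at most 9.82 and that of 7 vascular and mesenchymal markers at most 9.21, with Cldn5 at 0 in all libraries of 8 groups. Other glia were present. The 7 astrocyte markers summed to 292 to 368 FPKM under DRB and 324 to 469 FPKM under triptolide. The 7 oligodendrocyte lineage markers summed to 171 to 229 FPKM and 63.2 to 110 FPKM. The labels do not say that replicates came from separate cultures, so p-values measure the spread between these libraries. In such bulk samples fewer cells of a type and less RNA per cell cannot be told apart.

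The cultures held high levels of the constitutive chaperones. In unstimulated cells under DRB, Hsp90ab1, the constitutive cytosolic Hsp90, was the highest of the set at 853 ± 53.9 FPKM (SD, n = 3), followed by its inducible relative Hsp90aa1 at 275 ± 26.4 FPKM. Cct8, a subunit of the actin and tubulin folding ring, stood at 137 ± 5.91 FPKM and Dnajc5, the synaptic vesicle J-domain protein, at 136 ± 3.97 FPKM. Together the 79 genes held 0.733 to 1.00% of all FPKM in a library. A group of 15 genes never reached an FPKM of 1 in 3 libraries of either experiment, with a highest value of 0.720. Among them was Hspb1, the small heat shock protein best known for its rise in stressed cells, at 0 to 0.148 FPKM over the 27 libraries.

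Dnajb1, the cytosolic J-domain protein that works with Hsp70 and is a classical heat shock gene, was the only member called changed by either stimulus under DRB. Its level in the 3 unstimulated libraries was 8.73, 7.99 and 8.17 FPKM. It was 13.3, 13.6 and 14.5 FPKM after bicuculline and 33.4, 25.9 and 34.6 FPKM after BDNF. All 3 bicuculline libraries lay above all unstimulated ones, and all 3 BDNF libraries lay above both. The log2 change was 0.70 ± 0.11 (SE, limma adjusted p = 0.0363) with bicuculline, a 1.63-fold rise, and 1.84 ± 0.11 (adjusted p = 6.12e-05) with BDNF, a 3.59-fold rise. The direct test of BDNF against bicuculline gave 1.14 ± 0.11 on the log2 scale (limma adjusted p = 0.00508). The same 3 unstimulated libraries serve both stimuli.

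The 2 calls of Dnajb1 against unstimulated cells differ in strength. The BDNF call and the difference between the stimuli held whichever 1 of the 6 libraries compared was removed. The bicuculline call was lost with any 1 removed (adjusted p = 0.126 to 0.207, log2 change 0.67 to 0.74) and with median-ratio scaling of the libraries (adjusted p = 0.0641). It was also lost without the replicate 2 libraries, and it held with the replicate number as a block (adjusted p = 0.0145). Dnajb1 lies at chr8:83608175-83612657 on mm10, on the plus strand, with 3 exons in GENCODE M21 and no exon shared with another gene there.

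The bases before the Dnajb1 start are shown because this gene carries the response. They come from the RefSeq promoter table (GRCm38.p6, chr8:83607972-83608174, plus strand), with annotated exon bases left out.
Dnajb1: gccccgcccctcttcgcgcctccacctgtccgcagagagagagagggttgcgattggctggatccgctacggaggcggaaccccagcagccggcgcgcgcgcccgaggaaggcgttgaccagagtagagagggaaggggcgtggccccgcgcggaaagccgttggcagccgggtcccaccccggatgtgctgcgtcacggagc
A search of the 250 bases before each RefSeq start, on both strands, looked for heat shock element letters (TTCNNGAA or GAANNTTC), which heat shock factors are known to bind, and for the cAMP response element TGACGTCA. The Dnajb1 window held neither. Of the 64 members with a window, 15 (23.4%) held the heat shock element letters, against 14.5% of 27025 genes, and 1, Dnajc27, held TGACGTCA, against 1.77%. A longer form, in which either of these is followed after 2 bases by a further GAA or TTC in turn and which overlaps the shorter one, lay in the windows of 3 members, Dnajb6, Hspd1 and Hspe1, against 0.514% of genes. The windows of the divergent Hspd1 and Hspe1 overlap and share the same match, so the 3 members rest on 2 sites. The Hspe1 match is shown because both long forms overlap in it. It lies at chr1:55088059-55088076 (GRCm38.p6, plus strand), inside an annotated exon of Hspd1, and the capitals mark the matched bases.
Hspe1: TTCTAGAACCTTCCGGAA
None of the 3 genes with the long form was called changed by bicuculline or BDNF under DRB. A match is a description of letters, and no match says only that these letters are not in the window. Members without a window were not searched, among them Hspa8, Hspa9, Hspa13, Hsp90aa1, Hsp90ab1 and Cct4.

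The rest of the set stayed close to its unstimulated level under DRB. With bicuculline 1 of 64 members was called, where 0.308% of the 13321 entries tested were called. With BDNF it was 1 of 64 beside 0.638% of all entries, and between the stimuli 1 of 64 beside 0.128%. The median log2 change of the members was 0.02 with bicuculline and 0.01 with BDNF, and the median over all entries was 0.00 for both.

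Among the others the highest values belonged to Dnajb9, an endoplasmic reticulum J-domain protein that binds the stress sensor Ern1. Its level was 9.68, 10.4 and 10.4 FPKM in unstimulated cells, 13.9, 12.4 and 11.6 FPKM with bicuculline and 13.4, 13.4 and 13.2 FPKM with BDNF. The stimulated libraries lay above the unstimulated ones in both cases, but the changes of 0.30 ± 0.07 (limma adjusted p = 0.575) and 0.37 ± 0.07 (adjusted p = 0.0990) did not pass. Hspa5, the major Hsp70 of the endoplasmic reticulum, was 105, 101 and 123 FPKM unstimulated, 106, 104 and 134 FPKM with bicuculline and 123, 122 and 140 FPKM with BDNF, and its groups overlapped. Hspa8, the abundant constitutive Hsp70, did not separate either, with 112, 109 and 109 FPKM unstimulated, 104, 103 and 126 FPKM with bicuculline and 114, 112 and 111 FPKM with BDNF.

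**Figure D1:**
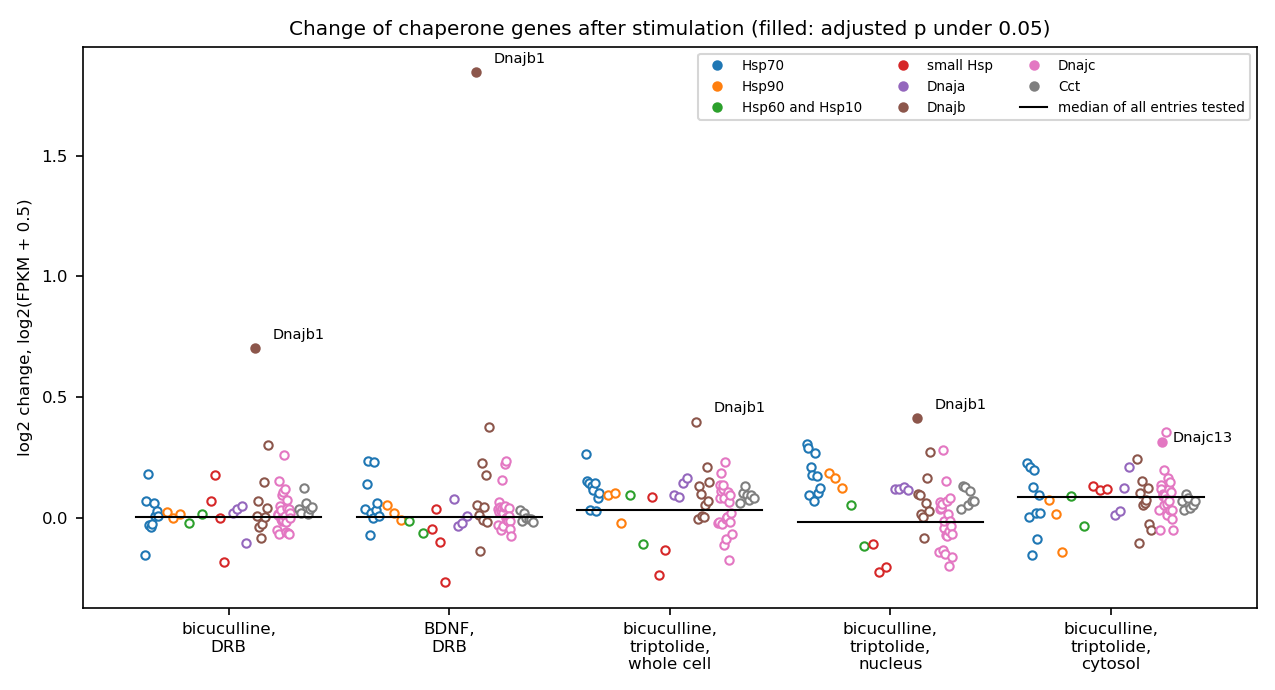
Log2 change of each tested member (points, coloured by family) after bicuculline or BDNF under DRB and after bicuculline in 3 RNA fractions under triptolide, on the log2(FPKM + 0.5) scale; filled points have an adjusted p under 0.05 and the black lines are the medians of all entries tested. Dnajb1 stands apart under DRB, at 0.70 with bicuculline and 1.84 with BDNF.

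By family, the 7 tested Cct genes moved by 0.01 to 0.12 with bicuculline and by -0.02 to 0.03 with BDNF on the log2 scale, with none called and 0 at an unadjusted p under 0.05. Of the 10 tested Hsp70 genes none was called by limma (0 at an unadjusted p under 0.05 with bicuculline, 1 with BDNF), with extremes of -0.15 for Hspa12a and 0.18 for Hspa14 under bicuculline. The highest of the 3 Hsp90 genes was Hsp90aa1, at 0.02 with bicuculline and 0.05 with BDNF. The mitochondrial chaperonin Hspd1 lay at -0.02 with bicuculline and its lid Hspe1 at -0.06 with BDNF. Of 24 tested Dnajc genes none was called by limma (1 at an unadjusted p under 0.05 with each stimulus), and the highest with bicuculline was Dnajc21 at 0.26. Of the 13321 entries tested, 266 had an unadjusted p under 0.05 with bicuculline and 462 with BDNF. These counts come from the fit without the replicate block, which leaves the differences between replicate numbers in the spread. With the block 958 and 1131 entries had such a p, and 6 and 9 of the 64 members. The called members were still 1 with each stimulus. The lowest small heat shock protein gene was Hspb8, which works with Bag3 in selective autophagy, at -0.18 with bicuculline and -0.27 with BDNF, and it was not called.

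Under triptolide Dnajb1 was lower and its response to bicuculline smaller in value. In whole cells it was 2.87, 2.66 and 2.38 FPKM unstimulated and 3.53, 3.53 and 3.81 FPKM with bicuculline. In nuclei it was 1.92, 1.81 and 2.07 FPKM against 2.82, 2.46 and 2.94 FPKM, and in cytosol 3.61, 3.34 and 3.09 FPKM against 4.03, 3.78 and 4.33 FPKM. In each fraction all stimulated libraries lay above all unstimulated ones. The log2 change was 0.41 ± 0.09 in nuclei (limma adjusted p = 0.0267), 0.40 ± 0.09 in whole cells (adjusted p = 0.0921) and 0.24 ± 0.09 in cytosol (adjusted p = 0.129). The nuclear call was lost with 5 of the 6 libraries left out in turn (adjusted p = 0.0158 to 0.0981 over the 6).

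Replicate numbers pair the triptolide libraries across groups, and with that number as a block Dnajb1 passed in all 3 fractions, with adjusted p = 0.00382 in nuclei, 0.0138 in whole cells and 0.0484 in cytosol. The bicuculline response of Dnajb1 exceeded, under DRB, that of whole triptolide cells by 0.30 ± 0.14 on the log2 scale. Neither this difference nor that of any other member passed by limma (0 of 64, with 4 at an unadjusted p under 0.05, Dnajb1 among them), beside 0.136% of 13930 entries called. An unadjusted p under 0.05 was found for 404 of these entries. The inhibitor, its time and the cultures changed together between the experiments and cannot be told apart.

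In whole cells under triptolide no member was called with bicuculline (0 of 62 by limma, 7 at an unadjusted p under 0.05), beside 0.0352% of 14205 entries. An unadjusted p under 0.05 was found for 1566 of these entries. With the replicate block 3 members were called, 4.84% of those tested beside 4.23% of all entries. They were Dnajb1, Dnajb5 (a J-domain protein related to Dnajb1, log2 change 0.21 ± 0.05, adjusted p = 0.0431) and the small heat shock protein gene Hspb6 (-0.24 ± 0.06, adjusted p = 0.0496). The genes named here and below from the block fit were chosen by their values.

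Nuclear RNA held more block calls. Without the block 1 of 62 members was called in nuclei, beside 1.81% of entries, and with it 12 of 62 (19.4%), beside 13.1% of entries. Of these, 10 rose (16.1% beside 7.72% of entries) and 2 fell (3.23% beside 5.39%). The 10 hold cytosolic chaperones, namely Hspa8 (0.17 ± 0.05, block adjusted p = 0.0355), Hspa4, Hspa2, Hsp90aa1, Hsp90ab1 and Dnajb1, and chaperones of the endoplasmic reticulum, namely Hspa5 (0.27 ± 0.07, adjusted p = 0.0153), Dnajb9, Dnajc16 and Hspa13. Hspb6 and Dnajc4 fell, by 0.23 and 0.20 on the log2 scale. Without replicate 1 of the stimulated nuclei the block called 4 of 62, namely Dnajb1 (0.41), Hspa13 (0.24), Dnajc16 (0.22) and Hspb6 (-0.26). That is 6.45% of the members beside 6.90% of entries, so in this fit the members' share was not above that of all entries. Calls over all entries fell too, from 1862 to 976. No other nuclear library was left out under the block. Whether this library in particular, or the loss of any 1 library, removes most of these calls was not tested.

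Nuclear Hspa8 was 244, 251 and 263 FPKM unstimulated and 315, 265 and 277 FPKM with bicuculline, without overlap. Nuclear Hspa5 was 104, 100 and 84.9 FPKM unstimulated and 150, 104 and 98.6 FPKM with bicuculline. Replicate 1 of the stimulated nuclei holds the highest nuclear value of both genes. The Hspa5 groups overlapped, since replicate 3 was the lowest and replicate 1 the highest in both, while each replicate rose over its own partner.

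In cytosol Dnajc13, an endosomal J-domain protein involved in membrane trafficking, was the only call without the block (1 of 62 beside 3.27% of entries). It was 8.61, 9.51 and 8.01 FPKM unstimulated and 10.2, 11.5 and 11.0 FPKM with bicuculline, without overlap, a log2 change of 0.31 ± 0.07 (limma adjusted p = 0.0282). All entries had a median change of 0.08 in this comparison. With median-ratio scaling the Dnajc13 value was 0.21 and no longer passed (adjusted p = 0.141), and it was lost without unstimulated replicate 1 or 3 or stimulated replicate 2 or 3. Of all entries 465 were called, 452 of them higher, and with that scaling 31, of which 19 were higher. The block called 6 cytosolic members, all higher (9.68% beside 14.5% of entries): Dnajc13, Dnajb1, Dnajc5, Hspa14 and Hspa4l, with Dnajc2, the ribosome-associated J-domain protein, at 0.35 ± 0.08 (adjusted p = 0.00837). With the block and median-ratio scaling together 6 were called, 2 higher and 4 lower (3.23% and 6.45%, beside 3.37% and 4.19% of entries), so the direction of this count depends on the scaling.

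The distribution between nucleus and cytosol separated the set more widely than either stimulus did. In unstimulated cells 38 of 62 members were lower in nuclear than in cytosolic RNA and 6 were higher. That is 61.3% and 9.68% of the members, beside 28% and 39% of the 14205 entries tested. The median nucleus minus cytosol difference was -0.33 for the members and 0.06 for all entries, on the log2 scale. Median-ratio scaling gave 42 lower and 5 higher members (67.7% and 8.06%), beside 34.6% and 35.7% of entries. FPKM is relative within each library, so these are differences in share of the RNA in each fraction, not in molecules per compartment.

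All 7 tested Cct genes were called lower in nuclei, beside 28% of all entries. So were all 3 Hsp90 genes, which are the cytosolic Hsp90aa1 and Hsp90ab1 and the endoplasmic reticulum Hsp90b1. Hsp90aa1 was 210, 240 and 238 FPKM in nuclei and 359, 391 and 356 FPKM in cytosol, a difference of -0.68 ± 0.07 (limma adjusted p = 1.78e-07). Dnaja1, a main cytosolic partner of Hsp70, was 56.1, 61.8 and 57.6 FPKM in nuclei and 99.2, 102 and 87.3 FPKM in cytosol, at -0.71 ± 0.06 (adjusted p = 6.87e-08), the lowest value of the set on this log2 scale. Hspa8 was 399, 392 and 381 FPKM in cytosol, above every nuclear library, at -0.63 ± 0.06 (adjusted p = 5.85e-08). The Cct genes lay in a narrow band, from -0.60 for Cct6a to -0.42 for Cct2. Dnajb1 itself was at -0.66 ± 0.09. In GENCODE M21 exons of Dnaja1, Cct6a, Cct7 and Cct8 overlap exons of neighbouring genes.

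Chaperones of the other compartments were more mixed. Of 11 endoplasmic reticulum members 7 were lower in nuclei and 3 higher, the lower ones including Hspa5 (-0.44), Hsp90b1 (-0.51), the J-domain proteins Dnajb9 (-0.60) and Dnajb11 (-0.54). Of 8 tested mitochondrial members 5 were lower and none higher, among them Hspd1 (-0.26) and Hspe1 (-0.30). Over all 62 members 61.3% were lower and 9.68% higher, and over all entries 28% and 39%. Quantile normalization lost the calls of Hspa5, Hspd1, Hspa9, Dnajc18 and Dnajc25, and median-ratio scaling that of Dnajc25. Exons of Hspd1 and Hspe1 overlap on opposite strands, and the strand setting of the counting is not given in the sources used here, so reads of that stretch cannot be assigned to one gene. Exons of Hsp90b1 and Dnajb9 also overlap exons of other annotated genes.

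The 6 genes higher in nuclei held 5 Dnajc genes. Dnajc1, a membrane J-domain protein of the endoplasmic reticulum, was 7.07, 7.99 and 10.2 FPKM in nuclei and 3.72, 3.81 and 4.05 FPKM in cytosol. The groups did not overlap, and the difference of 1.02 ± 0.14 (limma adjusted p = 6.46e-06) was the highest of the set on that scale. Exons of Dnajc1 overlap those of Mllt10 on the opposite strand. The others were Hspb8 (0.75 ± 0.17), Dnajc3 (0.36 ± 0.09), an inhibitor of eIF2alpha kinases, and Dnajc13 (0.35 ± 0.07). Dnajc24 (0.69), which takes part in diphthamide synthesis, and Dnajc25 (0.30) lay below a mean of 5 FPKM and were named after their values were seen. Exons of Dnajc13, Dnajc24 and Dnajc25 also overlap exons of other annotated genes. Hspb8 was 5.94, 7.87 and 8.76 FPKM in nuclei and 3.54, 4.94 and 4.26 FPKM in cytosol. The summed FPKM of 7 astrocyte markers was 414 to 469 in the same nuclear libraries and 324 to 414 in the cytosolic ones. Markers of excitatory neurons summed to 697 to 803 in nuclei and 518 to 561 in cytosol, those of interneurons to 96.1 to 119 and 227 to 292, and those of all neurons to 904 to 969 and 1133 to 1176. The part of these marker levels in the differences was not tested.

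**Figure D2:**
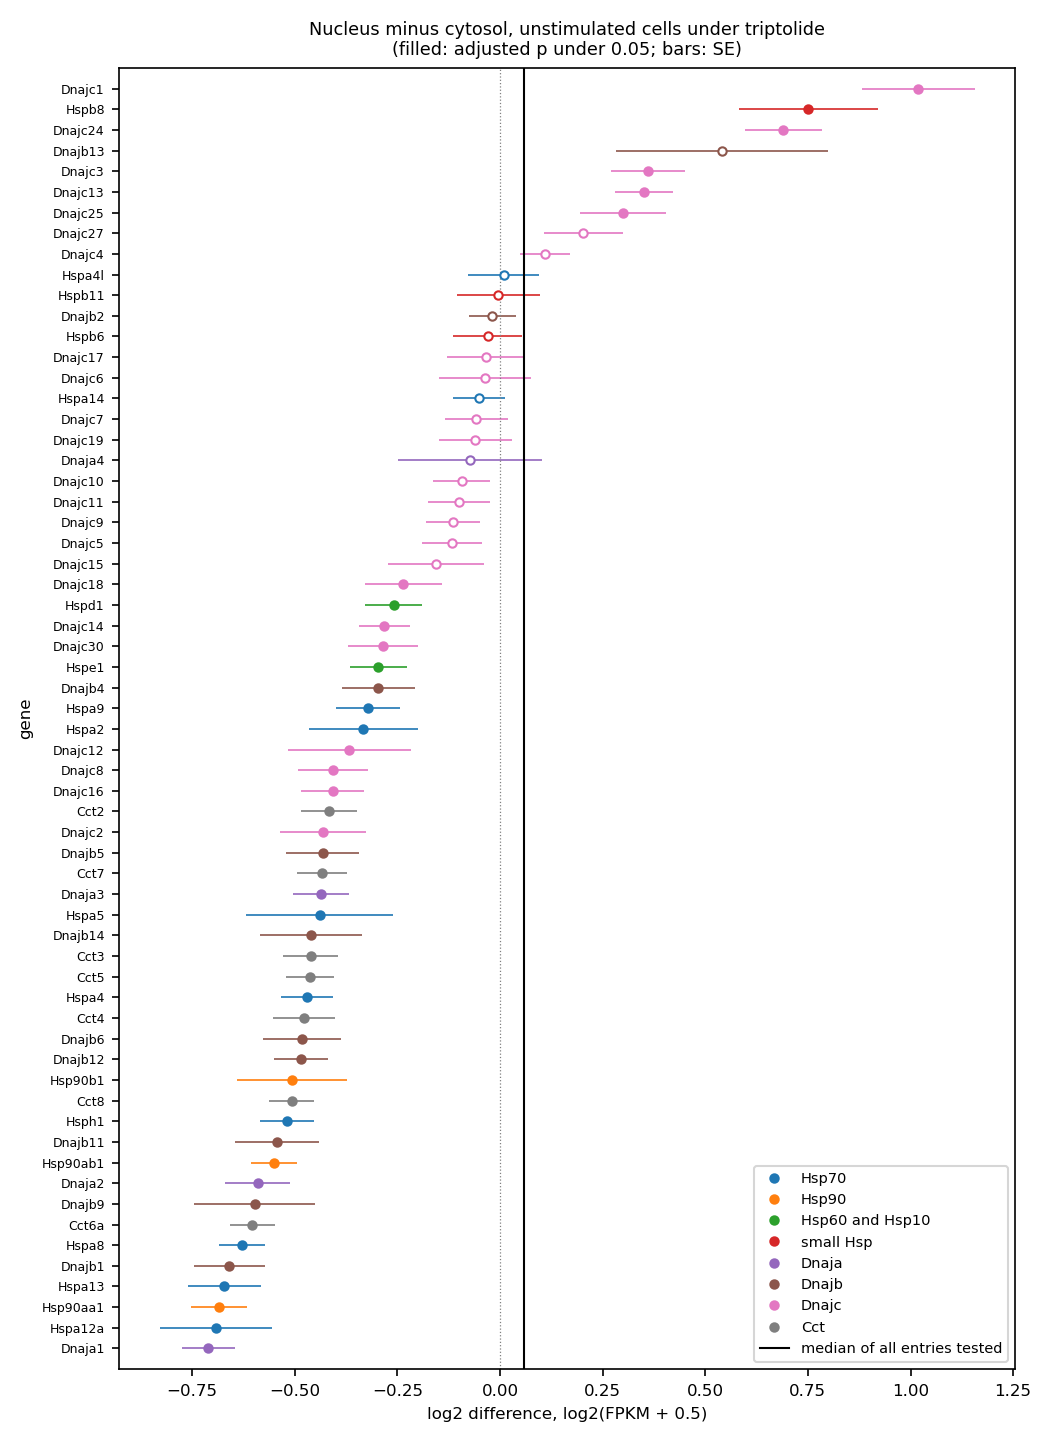
Nucleus minus cytosol log2 difference of each of the 62 tested members in unstimulated cells under triptolide, with SE bars, ordered by value and coloured by family; filled points have an adjusted p under 0.05 and the black line is the median of all entries. Members run from -0.71 (Dnaja1) to 1.02 (Dnajc1), and the Hsp90 and Cct genes all lie to the left of the line.

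Whole-cell means lay between the means of the 2 fractions for 48 of the 62 members in unstimulated cells and for 56 with bicuculline. After bicuculline 44 members were lower in nuclei and 5 higher, beside 31.9% and 31.3% of entries. Dnajc1 stayed nuclear in its share, with 6.99, 8.24 and 7.34 FPKM in nuclei and 4.51, 3.36 and 4.06 FPKM in cytosol (0.85 ± 0.14). Dnajc2 was the lowest, at -0.63 ± 0.11. Dnajc13, called higher in unstimulated nuclei, was at 0.08 ± 0.07 (limma adjusted p = 0.334).

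The change of the nucleus minus cytosol difference with bicuculline was tested as an interaction. Over all entries it had a median of -0.11, which median-ratio scaling moved to -0.03, so single values are best read against that shift. Without the block no member passed by limma (0 of 62, 5 at an unadjusted p under 0.05), beside 0.556% of entries. An unadjusted p under 0.05 was found for 2326 of 14205 entries. Of all entries 12 were called higher and 67 lower, and with that scaling 107 and 46. With the replicate block 6 members passed (9.68%), 4 higher and 2 lower, beside 9.76% of entries, and with block and scaling together 9, all higher (14.5%, beside 5.67% of entries higher and 2.26% lower). Without replicate 1 of the stimulated nuclei the block kept 2, Hspa2 (0.37) and Hspb6 (-0.37), which is 3.23% beside 3.91% of entries. Hspa8 was at 0.26 ± 0.07 with the block (toward the nucleus) and was the only member called with median-ratio scaling alone (0.36, limma adjusted p = 0.0350). Dnajc13 was at -0.27 ± 0.08 with the block (toward the cytosol).

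**Figure D3:**
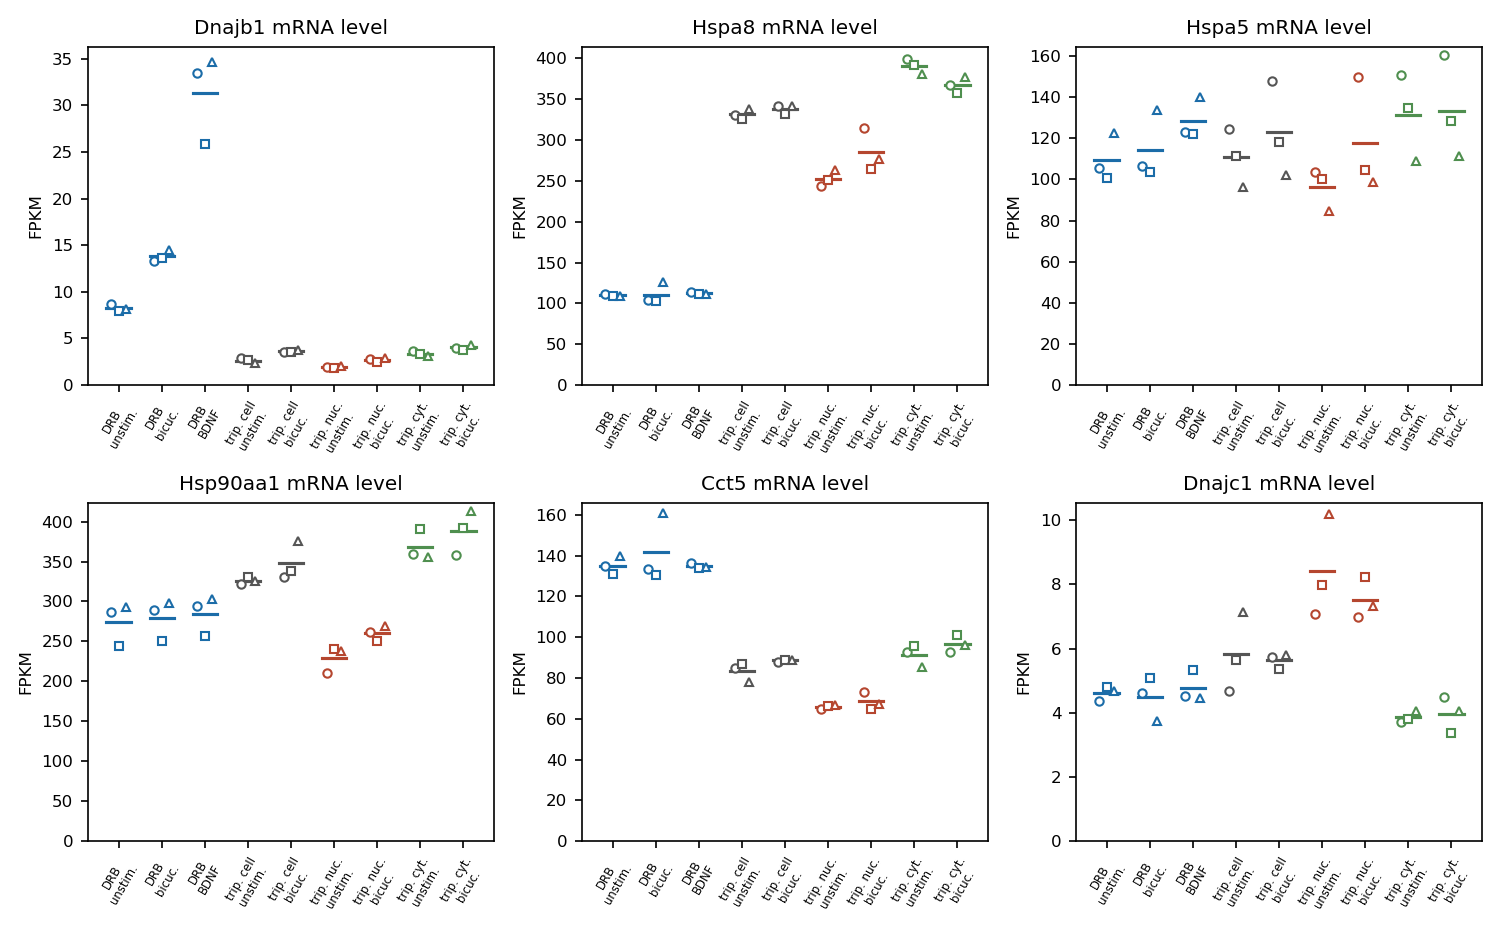
FPKM of 6 members in all 27 libraries (circle, square and triangle for replicates 1, 2 and 3; bars for group means), with whole cell, nucleus and cytosol abbreviated as cell, nuc. and cyt. and triptolide as trip. Dnajb1 climbs with bicuculline and BDNF under DRB, Hspa8 lies near 110 FPKM under DRB and at 326 to 342 FPKM in whole cells under triptolide, and Dnajc1 is highest in nuclei.

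Unstimulated cells under the 2 inhibitors differed in many chaperones. In this comparison of DRB with whole cells under triptolide 36 of 64 members were higher under DRB and 9 lower, beside 48.4% and 15.5% of 13930 entries. The median difference over all entries was 0.26 on the log2 scale, and median-ratio scaling moved it to -0.0048, the member calls to 18 higher and 19 lower and those of all entries to 3931 higher and 4001 lower. Values below are as fitted, with the value relative to the median of all entries after them where it matters. The inhibitor, its time and the cultures cannot be told apart here. Markers of the oligodendrocyte lineage summed to 174 to 227 FPKM under DRB and 73.3 to 89.6 FPKM under triptolide, and those of dividing progenitors to 18.5 to 28.4 and 6.67 to 8.72 FPKM. Markers of all neurons were also higher under DRB (1516 to 1653 against 1056 to 1132 FPKM), while those of astrocytes (319 to 368 against 386 to 429) and of vascular and mesenchymal cells (2.91 to 3.73 against 4.97 to 8.20) were lower. Their part in the differences was not tested.

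Hspa8 and Dnajb1, which work together in the Hsp70 cycle, differed in opposite directions and had the lowest and highest log2 differences of the members on this scale. Hspa8 was 112, 109 and 109 FPKM under DRB and 331, 326 and 338 FPKM under triptolide, at -1.59 ± 0.07 (limma adjusted p = 3.36e-10; -1.86 relative to the median). Dnajb1 was higher under DRB at 1.49 ± 0.10 (adjusted p = 4.43e-08; 1.22 relative to the median), and the groups of neither gene overlapped. In GENCODE M21 exons of Hspa8, pooled over all its annotated transcripts, overlap small nucleolar RNAs of the Snord14 group. This does not place them in the spliced mRNA. Dnajb6, which holds back protein aggregation, was 7.10, 5.95 and 5.78 FPKM under DRB and 12.4, 12.8 and 10.8 FPKM under triptolide (-0.88 ± 0.08, adjusted p = 1.09e-06).

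Endoplasmic reticulum chaperones were on the lower side under DRB. Of the 11, 5 were called lower and 1 higher, with a median of -0.28. Of all entries 15.5% were called lower and 48.4% higher, with a median of 0.26. The lower ones were Dnajb9 (-0.71), Hsp90b1 (-0.63), the disulfide reductase Dnajc10 (-0.50), Dnajb11 (-0.41) and Dnajc25 (-0.31), and the higher one Dnajb12 (0.24), whose value was -0.03 relative to the median. Hsp90b1 was 113, 106 and 130 FPKM under DRB and 193, 181 and 167 FPKM under triptolide, without overlap. Hspa5 did not follow, with 105, 101 and 123 FPKM under DRB and 125, 111 and 96.2 FPKM under triptolide (-0.01 ± 0.14, adjusted p = 0.941).

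Hspa5, Hsp90b1 and Dnajc3 are the members whose 250-base windows hold the full ER stress element, CCAAT and CCACG with 9 bases between them, on either strand, which the transcription factor Atf6 is known to use with NF-Y. It lay in the windows of 3 of 64 members and of 35 of 27025 genes (0.130%). The sequences are shown because these genes did not move alike. Capitals mark the matches, all are GRCm38.p6, and bases in annotated exons are left out except the Hspa5 site, which GENCODE M21 places in an exon of Hspa5 (chr2:34772025-34772043, plus strand). The Hsp90b1 run is chr10:86705511-86705694 on the minus strand and the Dnajc3 run chr14:118937682-118937931 on the plus strand.
Hspa5: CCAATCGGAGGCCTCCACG
Hsp90b1: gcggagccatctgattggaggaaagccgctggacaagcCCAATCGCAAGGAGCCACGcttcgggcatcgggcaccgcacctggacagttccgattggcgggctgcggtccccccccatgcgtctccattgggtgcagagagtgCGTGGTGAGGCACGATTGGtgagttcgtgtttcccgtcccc
Dnajc3: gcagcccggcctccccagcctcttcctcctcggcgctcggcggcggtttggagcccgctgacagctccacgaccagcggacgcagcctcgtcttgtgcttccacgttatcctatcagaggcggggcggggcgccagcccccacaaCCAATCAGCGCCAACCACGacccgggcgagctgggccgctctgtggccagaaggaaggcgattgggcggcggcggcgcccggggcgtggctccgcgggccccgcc
Of the 3 genes, Hsp90b1 was called lower under DRB than under triptolide, Hspa5 was not, and Dnajc3 was at -0.20 ± 0.11 (limma adjusted p = 0.130). The Dnajc3 result depends on the scaling, since it was called with median-ratio scaling and with quantile normalization. Hspa5 was called with neither. In nuclei against cytosol Hspa5 and Hsp90b1 were lower and Dnajc3 higher.

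The Cct genes were all on the higher side under DRB, 7 of 7 called, from 0.43 for Cct8 to 0.70 for Cct5. Of all entries 48.4% were called higher, and their median was 0.26. Cct5 was 135, 131 and 140 FPKM under DRB and 84.9, 86.6 and 78.0 FPKM under triptolide. With median-ratio scaling Cct2, Cct3, Cct4, Cct5 and Cct7 still passed, while Cct6a and Cct8 did not. Dnajb5 (0.89 ± 0.08) and Hspa14 (0.84 ± 0.07), an Hsp70 relative at the ribosome, were higher by more than the median, and so was the ribosome-associated Dnajc2 (0.72 ± 0.08). Hspb3, a small heat shock protein gene of low level, was 1.31, 1.19 and 1.06 FPKM under DRB and 0.439, 0.290 and 0.287 FPKM under triptolide, and is named after its values were seen. Dnaja1 (-0.38) and Hsp90aa1 (-0.25) were lower. The Hsp90aa1 call was lost without DRB replicate 2 or without triptolide replicate 2 or 3 (limma adjusted p up to 0.119, log2 difference -0.30 to -0.17 over the 6 fits). Hsp90ab1 (0.28), Hspa4 (0.27) and Hsph1 (0.29) were called higher, but with median-ratio scaling their values were just below 0 and not called.

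**Figure D4:**
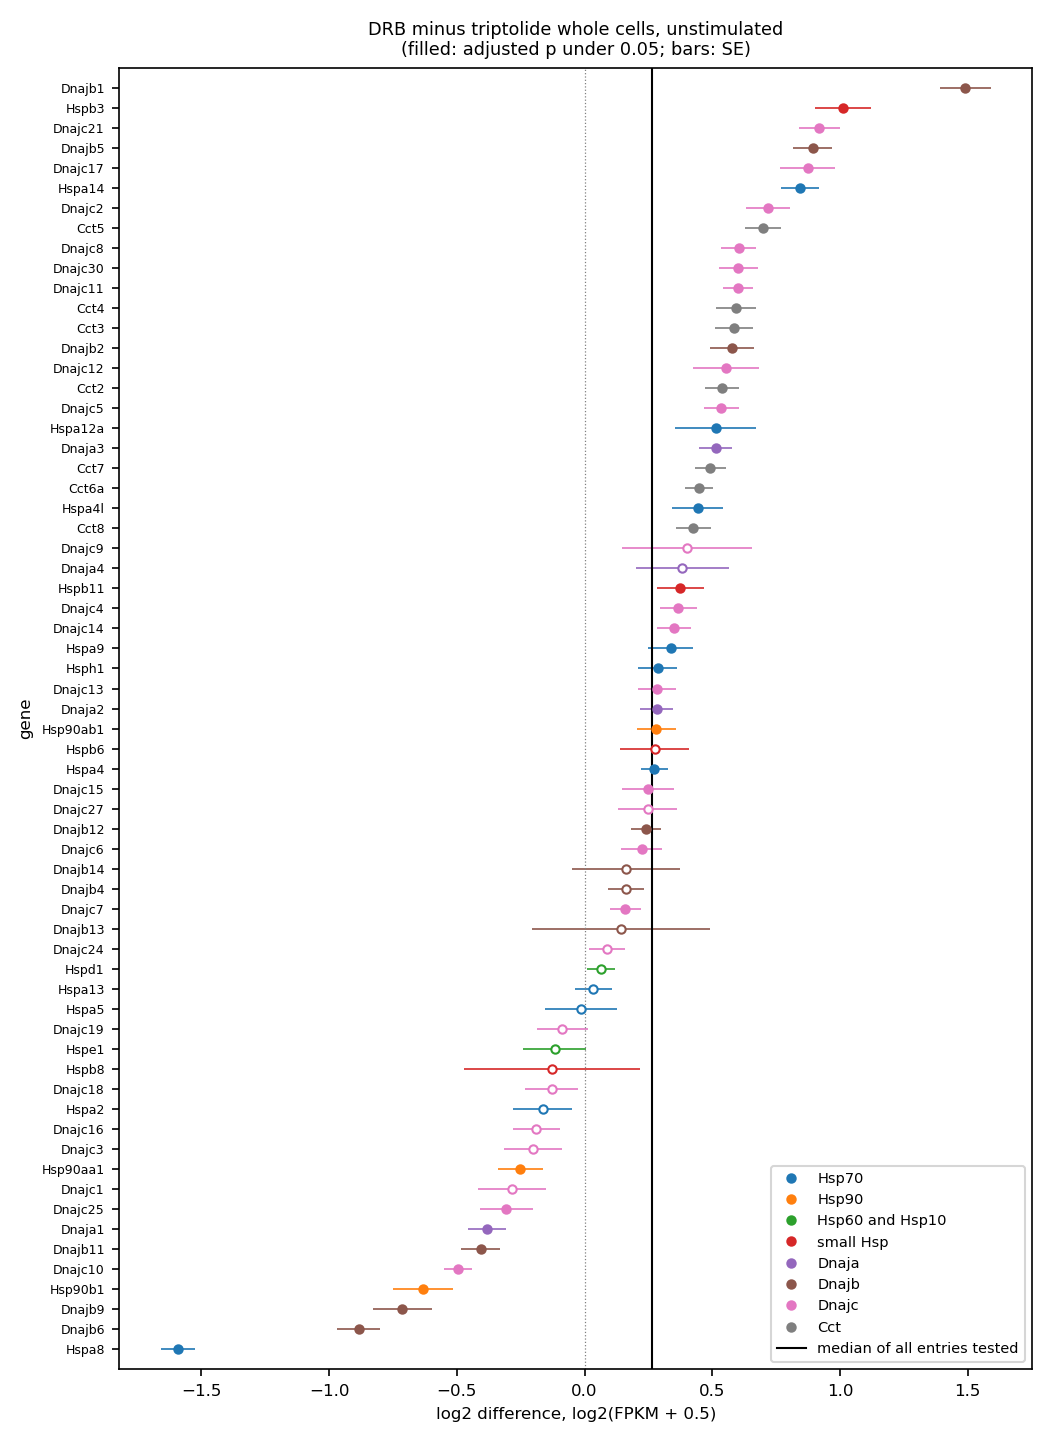
DRB minus triptolide log2 difference of each of the 64 tested members in unstimulated whole cells, with SE bars, ordered by value and coloured by family; filled points have an adjusted p under 0.05 and the black line, at 0.26, is the median of all entries. Hspa8 (-1.59) and Dnajb1 (1.49) are the extremes.

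Lists of partner genes held few calls with the stimuli, and few of all entries were called either. Under DRB 0.308% of entries were called with bicuculline and 0.638% with BDNF. Under triptolide the shares were 0.0352% in whole cells, 1.81% in nuclei and 3.27% in cytosol. Of 28 tested co-chaperones of Hsp70 and Hsp90, a list that also holds the Hsp70 gene Hspa13 described above, none was called with bicuculline or BDNF under DRB (0 at an unadjusted p under 0.05 for either), and under triptolide the call without a block was Bag1, an Hsp70 nucleotide exchange factor, lower in nuclei (-0.36 ± 0.06, limma adjusted p = 0.0130). Of the heat shock factors Hsf1, the main activator of heat shock genes, was not called with either stimulus under DRB. Nor was it called with bicuculline in any fraction under triptolide. Hsf2 was called higher in cytosol with bicuculline under triptolide (0.42 ± 0.09, limma adjusted p = 0.0249). In that cytosolic comparison 452 of the 465 entries called were higher, and 31 were called with median-ratio scaling. Of 9 chaperonin partners Pfdn1, a prefoldin subunit, was called lower in nuclei (-0.28 ± 0.06). The nuclear comparison, which holds the Bag1 and Pfdn1 calls, had 257 entries called, and 21 to 520 with 1 library left out. No gene of 16 for endoplasmic reticulum folding and the unfolded protein response, and none of 6 other stress proteins, was called with either stimulus by limma without a block. At most 2 of each list had an unadjusted p under 0.05 in any stimulus comparison.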

How the data were processed

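The authors deposited 1 FPKM value per gene entry and library. STAR 2.4.0, SAMtools, Picard and FastQC were used on mm10, per the submitters' processing notes. How fragments were counted, strand and multiple mapping included, is not given in the sources used here. Libraries were made with a stranded mRNA kit, per the labels' protocols.

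Values as deposited were taken as log2(FPKM + 0.5). Depth was estimated from the steps of low values of short entries; whole reads could not be recovered, so no count test applies. Group means were fitted with limma 3.58.1 in R 4.3.3, with trend and robust variance moderation, for 9 DRB libraries, 18 triptolide libraries, and the DRB with the whole-cell triptolide libraries, giving 11 comparisons. Entries had to reach 1 FPKM in 3 or more libraries. Same-numbered libraries deviated together (lowest correlation 0.444 under DRB, 0.262 under triptolide) and share codes in the labels, so the number pairs them. Alternatives were other pseudocounts, no filter, median-ratio and quantile normalization, the replicate block, and leaving out libraries.

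On simulated data 81% of log2 changes of 1 and 42% of 0.5 were recovered in the DRB bicuculline comparison of 13321 entries. The simulated spread was independent between libraries, unlike that of the real ones, where same-numbered libraries deviated together. Named genes are a core list, called members (where over 10, the 8 largest each way with a mean FPKM of at least 5 and groups that do not overlap) and family extremes; others are said to be chosen by value. The members and lists were chosen with earlier results of these data known, and the ER stress and cAMP element searches were added later. GENCODE M21 gave exons and RefSeq promoter windows matched 64 of 79 members. Figures used Python 3.11.15 and matplotlib 3.10.9.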

Additional observations from a re-analysis of the deposited data

Results flagged for a closer look

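With the replicate block, the bicuculline change of 6 members differed between nucleus and cytosol under triptolide by the interaction test. That is 9.68% of the members beside 9.76% of all entries, and the median of this difference over all entries was -0.11. The difference, nuclear change minus cytosolic change on the log2 scale, was 0.36 for Hspa2 (limma adjusted p = 0.0202), 0.32 for Dnajb9 (adjusted p = 0.0491), 0.29 for Hspa13 (adjusted p = 0.0450) and 0.26 for Hspa8 (adjusted p = 0.0356). It was -0.34 for Hspb6 (adjusted p = 0.0328) and -0.27 for Dnajc13 (adjusted p = 0.0372). Hspa2, a Hsp70 gene with a high level in testis, had a mean of 15.1 ± 1.56 FPKM (SD, n = 3) in unstimulated and 17.8 ± 3.56 FPKM in stimulated nuclei, and of 19.2 ± 2.17 and 17.2 ± 2.04 FPKM in cytosol. None of the 6 passed without the block, and without replicate 1 of the stimulated nuclei the block kept Hspa2 and Hspb6. With the block and median-ratio scaling together Hspb6 (-0.26, limma adjusted p = 0.0971) and Dnajc13 (-0.17, adjusted p = 0.119) did not pass.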

How the results depend on the processing

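The count of members called kept within 1.5 times of the reported one for BDNF, BDNF against bicuculline, both nucleus against cytosol comparisons and both DRB against triptolide comparisons under every alternative run. The genes behind a kept count could still change. In DRB against triptolide in unstimulated cells, median-ratio scaling kept 27 of the 45 calls and quantile normalization 32. Median-ratio scaling also moved the calls from 36 higher and 9 lower to 18 and 19. For bicuculline under DRB the count fell from 1 to 0 with no filter, median-ratio scaling, quantile normalization and without replicate 2. For the cytosolic response it fell from 1 to 0 with no filter, median-ratio scaling and quantile normalization, and for the nuclear response it was 5 with quantile normalization. For the shift of nucleus minus cytosol it was 1 with median-ratio scaling. With the replicate block the counts were 3 in whole cells, 12 in nuclei, 6 in cytosol and 6 for the shift, and with the block and median-ratio scaling together 2, 14, 6 and 9. With the block and without replicate 1 of the stimulated nuclei they were 4 in nuclei and 2 for the shift. The block changed no other count by over 1.5 times; it could not be fitted for DRB against triptolide in unstimulated cells, where numbers are nested in experiments. Leaving out 1 library gave 0 to 0 calls for bicuculline under DRB, 1 to 1 for BDNF and for BDNF against bicuculline, 0 to 0 for whole cells, 0 to 2 for nuclei and for cytosol, 0 to 1 for the shift, 39 to 43 and 43 to 46 for nucleus against cytosol, 0 to 0 for the DRB against triptolide response and 41 to 44 for levels. In DRB against triptolide median-ratio scaling reversed Hspa4 (-0.0249), Hsph1 (-0.0120), Hsp90ab1 (-0.0178) and Hspd1 (-0.233). Of 3035 alternative values of 210 named ones, 40 lost and 46 gained a call and 2061 were called in neither fit, 236 of these with another sign. The block with scaling, the block without a nuclear library and the fit without replicate 2 were chosen after seeing the data. The cause of these differences was not tested.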
